A study of Homo sapiens with 20 samples.

Results

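The 9 deacetylase genes described here lie outside class I: the class IIb genes HDAC6 and HDAC10, the class IV gene HDAC11, and the sirtuins SIRT1, SIRT2, SIRT3, SIRT5, SIRT6 and SIRT7. They were chosen by name from their family, and all 9 were found among the 78932 gene identifiers of the count table. RNA came from OPM2, an established human multiple myeloma cell line, and was measured by strand-specific, poly(A)-selected, paired-end sequencing in 20 libraries. The treated groups were panobinostat at 10 nM, romidepsin at 10 nM and ricolinostat at 100 nM, each harvested at 2, 5 and 20 h, and the vehicle group was DMSO. Each of the 10 groups had 2 libraries, described in the labels as independent biological replicates. The ricolinostat dose is 100 nM in the titles and protocol but 10 nM in the treatment field of the same samples. The labels give no harvest time for DMSO, so the effect of an inhibitor cannot be told apart from that of time in culture.

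Lysine deacetylases remove acetyl and other acyl groups from histones and other proteins. HDAC6, HDAC10 and HDAC11 use a catalytic zinc ion, which hydroxamate inhibitors such as panobinostat and ricolinostat bind, while the sirtuins consume NAD and have no such zinc. Panobinostat acts on most zinc-dependent family members, the depsipeptide romidepsin prefers class I enzymes, and ricolinostat was developed as an inhibitor of HDAC6. HDAC6 deacetylates tubulin in the cytoplasm and carries ubiquitinated protein to the aggresome, a route that myeloma cells, with their heavy secretory load, lean on beside the proteasome.

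Total counts per library ran from 17264640 to 29088868, and all 9 genes passed the filter on low counts that left 20957 genes for testing. Levels are CPM, the count of a gene scaled to a TMM-adjusted library of fixed size. Changes are log2 fold changes ± SE from 1 edgeR quasi-likelihood fit of all libraries. A gene passed when its Benjamini-Hochberg adjusted p, taken over all tested genes of a comparison, was under 0.05, and only such genes are said to rise or fall. The 8 plasma cell and myeloma markers (SDC1, TNFRSF17, CD38, PRDM1, IRF4, XBP1, MZB1 and SLAMF7) were all detected in every group. Their summed level was 492.5 to 495.8 CPM at 20 h of panobinostat, 1115 to 1133 CPM at 20 h of romidepsin and 3796 to 3834 CPM at 20 h of ricolinostat, against 4767 to 4780 CPM in DMSO. A stromal list of 4 genes summed to 40.4 to 43.1 CPM at 20 h of panobinostat and 29.4 to 31.9 CPM at 20 h of romidepsin, with COL1A2 and PDGFRB at 0 in the romidepsin libraries, against 0 to 0.0698 CPM in DMSO. A B cell list of 4 genes summed to 17.4 to 18.9 CPM and 16.8 to 17.8 CPM in the same treated groups, with MS4A1 at 0, against 0.140 to 0.198 CPM in DMSO. The plasma cell sum was also lower early: 2784 to 2788 CPM at 2 h and 1567 to 1588 CPM at 5 h of panobinostat, 3347 to 3597 CPM over 2 and 5 h of romidepsin and 3489 to 3569 CPM over 2 and 5 h of ricolinostat. These marker levels also differed between the groups compared below, and their part in the changes of the 9 genes was not tested. In bulk RNA of this cell line, fewer cells that express a gene and less RNA per cell cannot be told apart.

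At 20 h of panobinostat or romidepsin, the deacetylase genes mostly rose. HDAC6, HDAC11, SIRT1, SIRT2, SIRT3, SIRT6 and SIRT7, 7 of 9, were higher than in DMSO with either inhibitor, and none was lower. The SIRT6 call with romidepsin did not hold in every alternative fit (edgeR adjusted p = 0.264 with no filter). Over all tested genes, 40.8% were higher and 32.3% lower at 20 h of panobinostat, and 38.6% were higher and 29.9% lower at 20 h of romidepsin. The median change of the 9 genes was 0.85 with panobinostat and 0.60 with romidepsin on the log2 scale, beside 0.25 and 0.22 for all tested genes. With ricolinostat at 20 h, HDAC6 alone of the 9 was higher and none was lower, beside 14.7% higher and 16.4% lower over all genes, and without the second ricolinostat library SIRT2 was higher as well (0.20, adjusted p = 0.0356). With library size alone as the scale 4 of the 9 passed there, SIRT2, SIRT5 and SIRT6 being higher too (adjusted p = 0.0123, 0.0317 and 0.0118). Both treated 20 h comparisons share the DMSO libraries.

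Earlier times looked different. At 2 h of panobinostat, HDAC11, SIRT2, SIRT3 and SIRT7 were higher and HDAC6 and SIRT5 lower, beside 20.8% of all genes higher and 18.1% lower. The same 6 genes passed in the same directions at 5 h of panobinostat, when 30.7% of all genes were higher and 25.9% lower. At 2 h of ricolinostat, SIRT2, SIRT3 and SIRT7 were higher and HDAC6 and SIRT5 lower, beside 16.9% of all genes higher and 14.5% lower. At 5 h of ricolinostat, HDAC11, SIRT2, SIRT3, SIRT6 and SIRT7 were higher and HDAC6, SIRT1 and SIRT5 lower, beside 18.8% and 15.3% of all genes. Romidepsin at 2 h had none of the 9 higher and HDAC6 lower, beside 3.55% of all genes higher and 4.62% lower. Romidepsin at 5 h had none higher and HDAC6, HDAC10 and SIRT1 lower, beside 13% of all genes higher and 16.5% lower. The 2 h romidepsin count was 0 without either DMSO library or the second romidepsin library, and the 5 h count was 1 without the first DMSO or second romidepsin library and 6 without the first romidepsin library. With library size alone these counts were 0 and 1, with no filter the 2 h count was 0, and with DESeq2 or its size factors the 5 h count was 5, SIRT2 and SIRT7 being added.

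**Figure D1:**
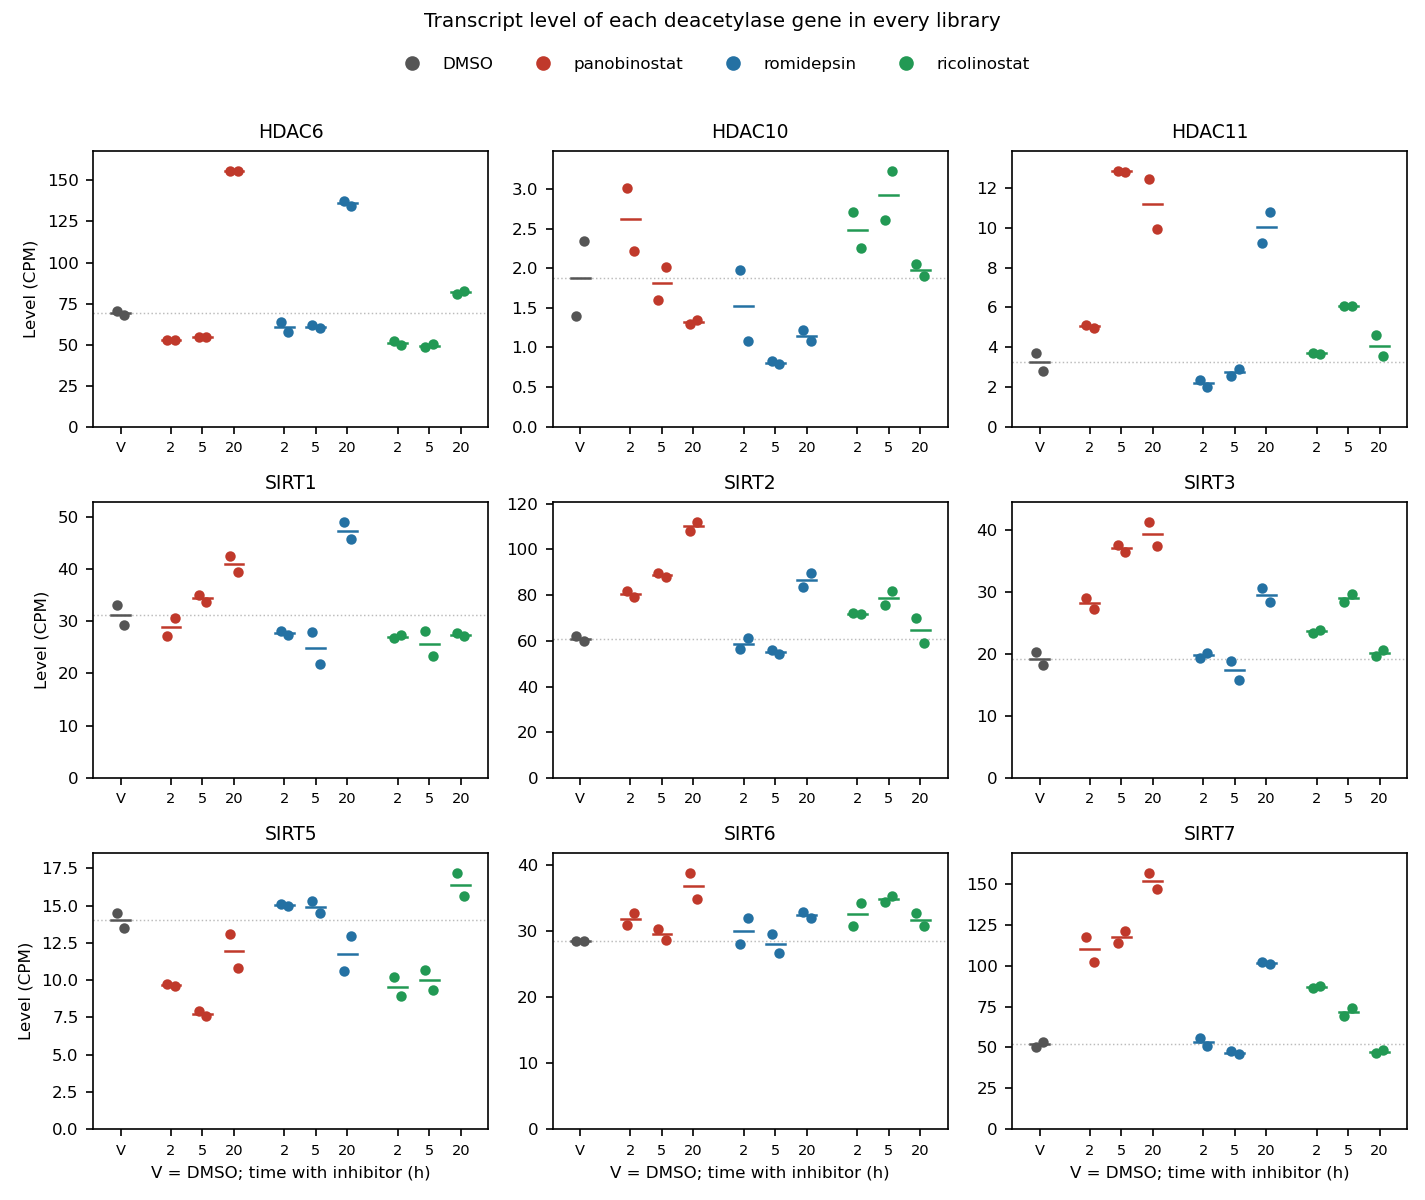
Level in CPM (vertical axes, from 0) of each of the 9 deacetylase genes in every library, with DMSO (V) at the left of the 2, 5 and 20 h libraries of each inhibitor; points are libraries, short lines are means of 2 and the dotted line is the DMSO mean. HDAC6 lies below DMSO at 2 and 5 h of every inhibitor and above it at 20 h, whereas SIRT7 lies above DMSO at every time of panobinostat, at 2 and 5 h of ricolinostat and at 20 h of romidepsin.

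**Figure D2:**
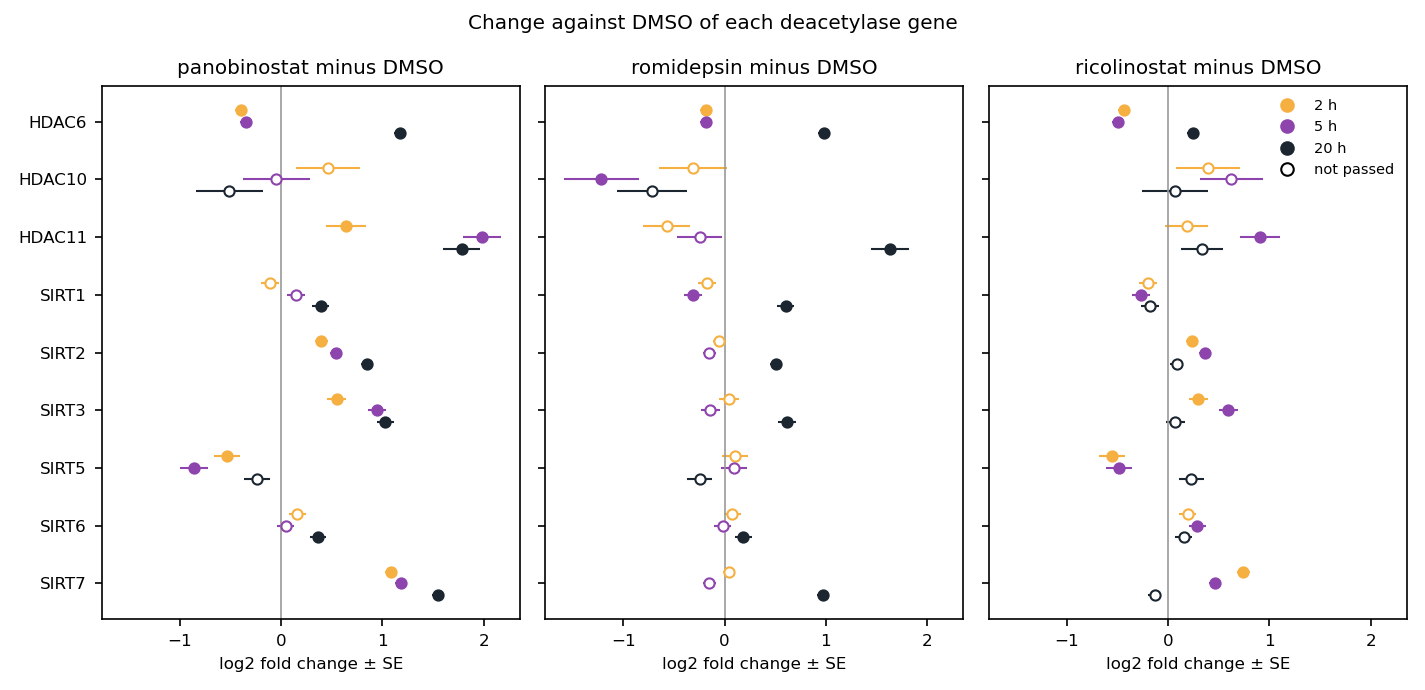
Change of each gene against DMSO as log2 fold change ± SE (horizontal axes), in 1 panel for each inhibitor, with 2, 5 and 20 h in 3 colours; filled points passed the edgeR test and open points did not. HDAC11 and SIRT7 have the largest changes with panobinostat, and HDAC10 has the widest errors.

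HDAC6 is a cytoplasmic deacetylase with tandem catalytic domains and a ubiquitin-binding zinc finger (chrX:48801377-48824982, plus strand, GRCh38 with GENCODE 29). Its level was 70.5 and 67.8 CPM in DMSO, and with panobinostat 52.5 and 52.5 CPM at 2 h, 54.6 and 54.5 CPM at 5 h and 156 and 156 CPM at 20 h. With romidepsin the level was 63.5 and 57.9 CPM at 2 h, 61.9 and 60.1 CPM at 5 h and 137 and 135 CPM at 20 h. With ricolinostat it was 52.1 and 49.8 CPM at 2 h, 48.2 and 50.1 CPM at 5 h and 81.1 and 82.7 CPM at 20 h. No library of any treated group overlapped the DMSO libraries: all at 2 and 5 h were lower and all at 20 h were higher.

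The early falls in HDAC6 were small. They measured -0.40 ± 0.06 at 2 h and -0.34 ± 0.06 at 5 h of panobinostat (edgeR adjusted p = 1.18e-08 and 4.31e-07), and -0.44 ± 0.06 and -0.49 ± 0.06 at 2 and 5 h of ricolinostat (adjusted p = 6.82e-10 and 1.41e-11). With romidepsin they were -0.19 ± 0.06 at 2 h and -0.18 ± 0.06 at 5 h (adjusted p = 0.0283 and 0.0121). The 2 h romidepsin call was lost without either DMSO library (adjusted p = 0.248 and 0.0676) and without the second romidepsin library (0.423). The 5 h romidepsin call was lost without the first DMSO library (0.124) and without the second romidepsin library (0.0544), and both calls were lost when library size alone set the scale (0.123 and 0.541).

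By 20 h the direction had turned with each inhibitor. HDAC6 averaged 156 ± 0.00744 CPM with panobinostat, 136 ± 1.77 CPM with romidepsin and 81.9 ± 1.19 CPM with ricolinostat, against 69.1 ± 1.91 CPM in DMSO (SD, n = 2 each). The changes against DMSO were 1.17 ± 0.05, 0.98 ± 0.06 and 0.25 ± 0.06, with adjusted p of 2.14e-37, 5.64e-31 and 2.83e-04. The 20 h libraries exceeded the 5 h libraries of the same inhibitor by 1.52 ± 0.06 with panobinostat, 1.16 ± 0.06 with romidepsin and 0.74 ± 0.06 with ricolinostat. From 2 to 5 h HDAC6 passed with none of the inhibitors, with changes between -0.05 and 0.05. Its merged exons span 10602 bases, and no other annotated gene overlapped it or started within 1000 bases on the opposite strand.

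HDAC10 deacetylates acetylated spermidine, a polyamine, in preference to protein (chr22:50245183-50251405, minus strand). It was near the lower limit of what these libraries can measure, with 17 to 69 counts a library. Its level was 1.40 and 2.35 CPM in DMSO, and with romidepsin 1.97 and 1.08 CPM at 2 h, 0.828 and 0.788 CPM at 5 h and 1.22 and 1.08 CPM at 20 h. With panobinostat it was 3.02 and 2.22 CPM at 2 h, 1.59 and 2.02 CPM at 5 h and 1.29 and 1.35 CPM at 20 h. Ricolinostat libraries had 2.71 and 2.26 CPM at 2 h, 2.62 and 3.23 CPM at 5 h and 2.05 and 1.90 CPM at 20 h.

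The fall at 5 h of romidepsin, -1.22 ± 0.37, was the one HDAC10 change against DMSO that passed (adjusted p = 0.00636), and it was lost without the second DMSO library (adjusted p = 0.236). The DMSO libraries themselves were far apart, and leaving out the first of them brought the falls at 20 h of panobinostat and of romidepsin past the threshold (adjusted p = 0.0485 and 0.0176). Leaving out the second brought a rise at 5 h of ricolinostat past it (1.06, adjusted p = 0.0416). Of its sequence, 5956 bases overlap MAPK12 on the same strand, including 2763 bases of exons. MAPK12, a p38-family kinase gene, stood at 10.4 ± 0.576 CPM at 20 h of panobinostat and 22.0 ± 1.48 CPM at 20 h of romidepsin, against 78.1 ± 2.77 CPM in DMSO (SD, n = 2). How reads in shared exons were assigned is not given in the sources used here, so the HDAC10 counts are uncertain.

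HDAC11, the only class IV member, removes long fatty acyl groups (chr3:13479724-13506424, plus strand). It had the widest range of the 9 genes, a ratio of 5.89 between its highest and lowest group mean. Its level was 3.73 and 2.80 CPM in DMSO, and with panobinostat 5.14 and 4.98 CPM at 2 h, 12.9 and 12.8 CPM at 5 h and 12.5 and 9.95 CPM at 20 h. With romidepsin it was 2.37 and 2.00 CPM at 2 h, 2.56 and 2.92 CPM at 5 h and 9.24 and 10.8 CPM at 20 h. The ricolinostat level was 3.72 and 3.65 CPM at 2 h, 6.08 and 6.08 CPM at 5 h and 4.62 and 3.54 CPM at 20 h.

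HDAC11 was higher than in DMSO early with panobinostat, and romidepsin libraries stood above DMSO at 20 h alone. Against DMSO the panobinostat changes were 0.64 ± 0.20, 1.98 ± 0.19 and 1.78 ± 0.18 at 2, 5 and 20 h (adjusted p = 0.00639, 2.95e-17 and 1.86e-15). Without the second DMSO library the 2 h change was 0.44 and no longer passed (adjusted p = 0.172). The romidepsin changes were -0.57 ± 0.23 and -0.25 ± 0.22 at 2 and 5 h, which did not pass (adjusted p = 0.117 and 0.448), and 1.63 ± 0.19 at 20 h (2.39e-13). With ricolinostat HDAC11 was higher than in DMSO at 5 h, by 0.91 ± 0.20 (adjusted p = 7.14e-05), while 0.18 ± 0.21 at 2 h and 0.33 ± 0.21 at 20 h did not pass (0.579 and 0.238). The antisense gene HDAC11-AS1, which overlaps 330 exon bases, had 9 counts over all 20 libraries and was not tested.

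SIRT7 is a mainly nucleolar sirtuin that acts on chromatin and on ribosomal RNA transcription (chr17:81911939-81921323, minus strand). At 2 h of panobinostat and of ricolinostat its change was the largest of the sirtuins. Its level was 50.5 and 53.1 CPM in DMSO, and with panobinostat 118 and 102 CPM at 2 h, 114 and 121 CPM at 5 h and 156 and 147 CPM at 20 h. Romidepsin libraries had 55.8 and 51.1 CPM at 2 h, 47.5 and 45.9 CPM at 5 h and 102 and 101 CPM at 20 h. Under ricolinostat it was 86.2 and 87.4 CPM at 2 h, 69.1 and 74.1 CPM at 5 h and 46.3 and 48.5 CPM at 20 h.

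All panobinostat libraries of SIRT7 lay above DMSO, and its ricolinostat libraries were highest at 2 h and just below DMSO at 20 h. Against DMSO the panobinostat changes were 1.08 ± 0.06, 1.18 ± 0.06 and 1.55 ± 0.06 at 2, 5 and 20 h (adjusted p = 5.39e-31, 3.38e-34 and 7.25e-45). The ricolinostat changes were 0.74 ± 0.06 at 2 h and 0.46 ± 0.06 at 5 h (adjusted p = 1.01e-19 and 3.22e-10), and -0.13 ± 0.06 at 20 h, which did not pass (0.118). Romidepsin gave 0.04 ± 0.06 at 2 h and -0.15 ± 0.06 at 5 h, neither of which passed (adjusted p = 0.81 and 0.0666), and 0.97 ± 0.06 at 20 h (2.08e-28). Its exons share 105 bases on the same strand with MAFG, a gene for a small Maf transcription factor, whose level was 74.5 ± 2.01 CPM at 20 h of panobinostat against 131 ± 0.029 CPM in DMSO (SD, n = 2).

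SIRT2, a mainly cytoplasmic sirtuin that like HDAC6 can deacetylate tubulin (chr19:38878555-38899862, minus strand), was at 61.9 and 60.1 CPM in DMSO. With panobinostat it was at 81.9 and 79.0 CPM at 2 h, 89.8 and 87.9 CPM at 5 h and 108 and 112 CPM at 20 h. The romidepsin level was 56.3 and 61.1 CPM at 2 h, 55.9 and 54.0 CPM at 5 h and 83.6 and 89.8 CPM at 20 h. Libraries with ricolinostat held 72.1 and 71.8 CPM at 2 h, 75.6 and 81.7 CPM at 5 h and 69.9 and 59.3 CPM at 20 h. Every panobinostat library lay above both DMSO libraries, and so did the ricolinostat libraries of 2 and 5 h, while the 20 h ricolinostat pair lay on either side of them.

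SIRT3, the main deacetylase of mitochondria (chr11:215458-236931, minus strand), was at 20.3 and 18.2 CPM in DMSO. With panobinostat it was at 29.01 and 27.4 CPM at 2 h, 37.7 and 36.5 CPM at 5 h and 41.3 and 37.4 CPM at 20 h. Under romidepsin it was 19.4 and 20.2 CPM at 2 h, 18.9 and 15.9 CPM at 5 h and 30.6 and 28.4 CPM at 20 h. With ricolinostat it was 23.4 and 23.9 CPM at 2 h, 28.3 and 29.7 CPM at 5 h and 19.7 and 20.7 CPM at 20 h.

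SIRT2 and SIRT3 passed in the same comparisons against DMSO. With panobinostat SIRT2 rose by 0.40 ± 0.06, 0.54 ± 0.06 and 0.85 ± 0.06 at 2, 5 and 20 h, and SIRT3 by 0.55 ± 0.09, 0.95 ± 0.09 and 1.03 ± 0.09, with adjusted p of at most 2.46e-07. With ricolinostat SIRT2 rose by 0.24 ± 0.06 and 0.36 ± 0.06 at 2 and 5 h (adjusted p = 0.00103 and 3.59e-07), and SIRT3 by 0.30 ± 0.09 and 0.59 ± 0.09 (0.00766 and 4.07e-08). The 2 h SIRT3 call was lost without the second DMSO library (adjusted p = 0.163) and without the second ricolinostat library (0.0591). At 20 h of ricolinostat SIRT2 and SIRT3 differed from DMSO by 0.08 ± 0.06 and 0.07 ± 0.10 and did not pass. With romidepsin both rose at 20 h, by 0.51 ± 0.06 and 0.62 ± 0.09 (adjusted p = 1.47e-12 and 2.93e-09), and passed at neither 2 h nor 5 h.

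SIRT5 removes succinyl, malonyl and glutaryl groups in mitochondria (chr6:13574529-13615158, plus strand), and its level was 14.5 and 13.5 CPM in DMSO. With panobinostat it was 9.72 and 9.62 CPM at 2 h, 7.92 and 7.59 CPM at 5 h and 13.1 and 10.8 CPM at 20 h. With romidepsin it was 15.1 and 15.0 CPM at 2 h, 15.3 and 14.5 CPM at 5 h and 10.6 and 12.9 CPM at 20 h. Ricolinostat libraries had 10.2 and 8.93 CPM at 2 h, 10.7 and 9.31 CPM at 5 h and 17.2 and 15.6 CPM at 20 h. SIRT5 fell early, by 0.53 and 0.85 on the log2 scale at 2 and 5 h of panobinostat (SE 0.13 and 0.14, adjusted p = 4.17e-04 and 5.47e-08), and by 0.55 and 0.48 at 2 and 5 h of ricolinostat (SE 0.13 each, adjusted p = 3.35e-04 and 0.00164). No 20 h change of SIRT5 passed: they were -0.23 ± 0.13 with panobinostat, -0.25 ± 0.13 with romidepsin and 0.23 ± 0.12 with ricolinostat. The panobinostat change passed with no filter (edgeR adjusted p = 0.0449) and with the DMSO and panobinostat libraries alone (0.0402). The romidepsin change passed with the DMSO and romidepsin libraries alone (0.0454). Without the first panobinostat library the panobinostat change was -0.37, and without the second romidepsin library the romidepsin change was -0.40. The antisense gene AL441883.1, over 1045 bases of SIRT5 exons, had 2 counts in all 20 libraries.

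SIRT1, a nuclear sirtuin that deacetylates histones and transcription factors such as p53 (chr10:67884669-67918390, plus strand), was at 33.1 and 29.2 CPM in DMSO. With panobinostat it was at 27.1 and 30.6 CPM at 2 h, 35.1 and 33.7 CPM at 5 h and 42.5 and 39.3 CPM at 20 h. Romidepsin libraries had 28.1 and 27.3 CPM at 2 h, 27.9 and 21.9 CPM at 5 h and 49.0 and 45.7 CPM at 20 h. The ricolinostat level was 26.8 and 27.3 CPM at 2 h, 28.2 and 23.3 CPM at 5 h and 27.7 and 27.1 CPM at 20 h. The 20 h rises were 0.39 ± 0.08 with panobinostat and 0.60 ± 0.08 with romidepsin (adjusted p = 2.14e-05 and 6.57e-10), and with ricolinostat -0.18 ± 0.09 did not pass (0.117). At 5 h SIRT1 fell by 0.31 with romidepsin and 0.27 with ricolinostat on the log2 scale (SE 0.09 each, adjusted p = 0.00393 and 0.0128). The romidepsin fall no longer passed without the first DMSO library (adjusted p = 0.136), without the second romidepsin library (0.233) or with library size alone as the scale (0.11), and the ricolinostat fall without the first DMSO library (0.244) or the second ricolinostat library (0.257).

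SIRT6, a chromatin-bound sirtuin with roles in DNA repair and telomere maintenance (chr19:4174109-4182604, minus strand), moved least, with a ratio of 1.31 between its highest and lowest group mean. Its level was 28.5 and 28.4 CPM in DMSO, and with panobinostat 30.8 and 32.7 CPM at 2 h, 30.3 and 28.6 CPM at 5 h and 38.7 and 34.8 CPM at 20 h. The romidepsin level was 28.0 and 32.0 CPM at 2 h, 29.4 and 26.6 CPM at 5 h and 32.8 and 31.9 CPM at 20 h. Under ricolinostat it was 30.7 and 34.2 CPM at 2 h, 34.3 and 35.2 CPM at 5 h and 32.6 and 30.7 CPM at 20 h. SIRT6 rose at 20 h of panobinostat by 0.36 ± 0.08 (adjusted p = 3.97e-05), at 20 h of romidepsin by 0.18 ± 0.08 (0.042) and at 5 h of ricolinostat by 0.29 ± 0.08 (0.00325). The median change of all tested genes was 0.25, 0.22 and 0.02 in these comparisons, so the romidepsin change of SIRT6 lay below that median. The romidepsin call was lost with no filter (edgeR adjusted p = 0.264) and with the DMSO and romidepsin libraries alone (0.0682). It was also lost when any 1 of the 4 libraries was left out (changes of 0.17 to 0.20). The ricolinostat call was lost without the second ricolinostat library, where the change was 0.24.

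Between genes, levels were compared per kb of merged exons, since counts grow with transcript length. At 20 h of panobinostat SIRT7 led with 24.7 CPM per kb, followed by SIRT2 with 17.7, HDAC6 with 14.7, SIRT6 with 13.2, SIRT1 with 8.99, SIRT3 with 7.57, HDAC11 with 2.12, SIRT5 with 1.84 and HDAC10 with 0.267 CPM per kb. Of neighbours in that order, only HDAC11 and SIRT5 overlapped between libraries. In DMSO the order was SIRT6 at 10.2, SIRT2 at 9.80, SIRT7 at 8.42, SIRT1 at 6.84, HDAC6 at 6.52, SIRT3 at 3.70, SIRT5 at 2.15, HDAC11 at 0.617 and HDAC10 at 0.378 CPM per kb, where only SIRT1 and HDAC6 overlapped. Both orders depend on the length used. Per kb of the longest transcript at 20 h of panobinostat, SIRT7 led with 44.1, HDAC6 stood at 29.7 above SIRT2 at 23.3, and SIRT3 at 15.0 above SIRT1 at 10.0 CPM per kb. In DMSO SIRT6 then led with 17.3, followed by SIRT7 with 15.0, HDAC6 with 13.2 and SIRT2 with 12.9 CPM per kb.

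**Figure D3:**
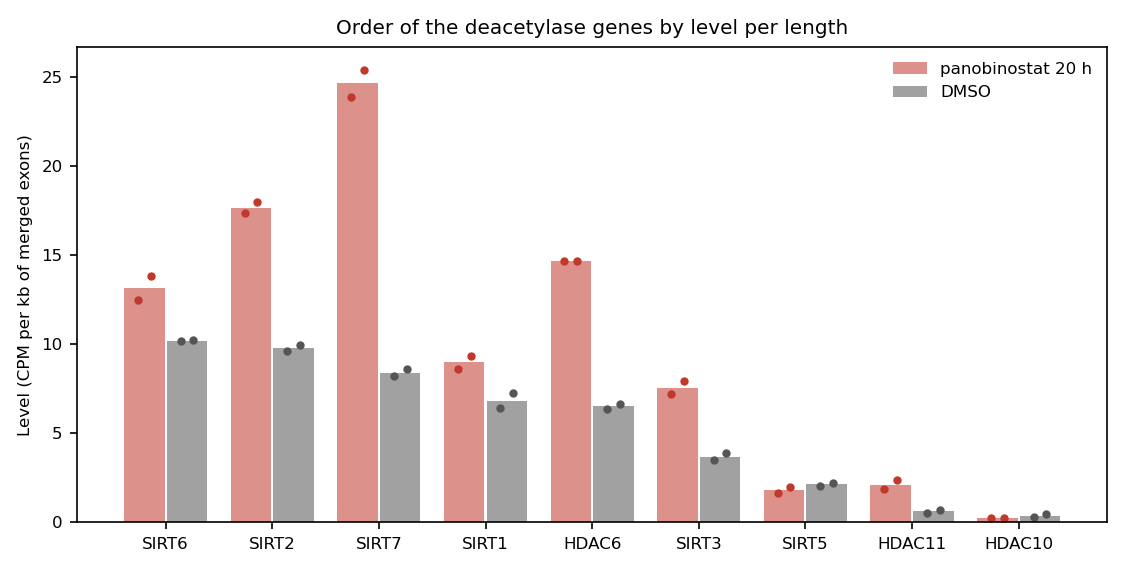
Level in CPM per kb of merged exons (vertical axis, from 0) of the 9 genes at 20 h of panobinostat (left bar of each pair) and in DMSO (right bar); bars are means of 2 libraries and points are the libraries. SIRT7 stood at 24.7 CPM per kb at 20 h of panobinostat and 8.42 CPM per kb in DMSO, while HDAC10 was the lowest gene in both groups.

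Romidepsin and panobinostat, a cyclic depsipeptide and a hydroxamate, were given at the same dose and for the same times, so their libraries were compared directly over 27 pairs of values. At 2 h, HDAC6 and SIRT5 were higher and HDAC11, SIRT2, SIRT3 and SIRT7 lower with romidepsin than with panobinostat, 6 of 9 genes, beside 37.1% of all genes in either direction. At 5 h 8 of 9 differed, with HDAC10 and SIRT1 added on the lower side, beside 50.7% of all genes. At 20 h 5 of 9 differed, beside 41.7% of all genes: SIRT1 was higher, and HDAC6, SIRT2, SIRT3 and SIRT7 were lower with romidepsin.

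The widest gap was HDAC11 at 5 h, with 2.56 and 2.92 CPM with romidepsin against 12.9 and 12.8 CPM with panobinostat, a difference of -2.23 ± 0.19 (adjusted p = 5.34e-19). SIRT7 differed by -1.04 ± 0.06, -1.33 ± 0.06 and -0.58 ± 0.06 at 2, 5 and 20 h, with adjusted p of at most 1.92e-16. SIRT3 differed by -0.51 ± 0.09, -1.09 ± 0.09 and -0.41 ± 0.08, and SIRT2 by -0.45 ± 0.06, -0.69 ± 0.06 and -0.34 ± 0.06, with adjusted p of at most 1.58e-05. SIRT5 went the other way at 2 and 5 h, by 0.64 ± 0.13 and 0.95 ± 0.14 (adjusted p = 2.56e-05 and 3.24e-09). HDAC6 differed by 0.21 ± 0.06, 0.16 ± 0.06 and -0.20 ± 0.05 at 2, 5 and 20 h (adjusted p = 0.00298, 0.0195 and 0.0011). The 2 h HDAC6 difference was lost without the first romidepsin library (adjusted p = 0.145). The 5 h difference was lost without either panobinostat library (0.0886 and 0.136), without the first romidepsin library (0.191) and with DESeq2 (0.0552).

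Other differences were small or poorly bounded. SIRT1 was lower with romidepsin at 5 h, by -0.46 ± 0.09 (adjusted p = 8.4e-06), and higher at 20 h by 0.21 ± 0.08 (0.0292). The 20 h call was lost without the second panobinostat library (adjusted p = 0.269), without the first romidepsin library (0.237), with DESeq2 (0.129) and with library size alone (0.159). HDAC10 was lower at 5 h by -1.17 ± 0.38 (adjusted p = 0.00608), a call lost without the second panobinostat library (0.0835). SIRT6 passed at no time, and the 95% intervals of its differences were -0.25 to 0.08 at 2 h, -0.23 to 0.10 at 5 h and -0.34 to -0.02 at 20 h. The 20 h SIRT6 difference passed with DESeq2's size factors (edgeR adjusted p = 0.0447), library size alone (0.00728) and a replicate block (0.0364). It also passed in a fit of the DMSO, panobinostat and romidepsin libraries alone (0.0474). Without the second panobinostat library the difference was -0.26. At 20 h HDAC11 did not pass either, with an interval of -0.47 to 0.16, and for SIRT5 the interval was -0.26 to 0.24. Ricolinostat was given at another dose, so its values stand beside the others without a test.

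**Figure D4:**
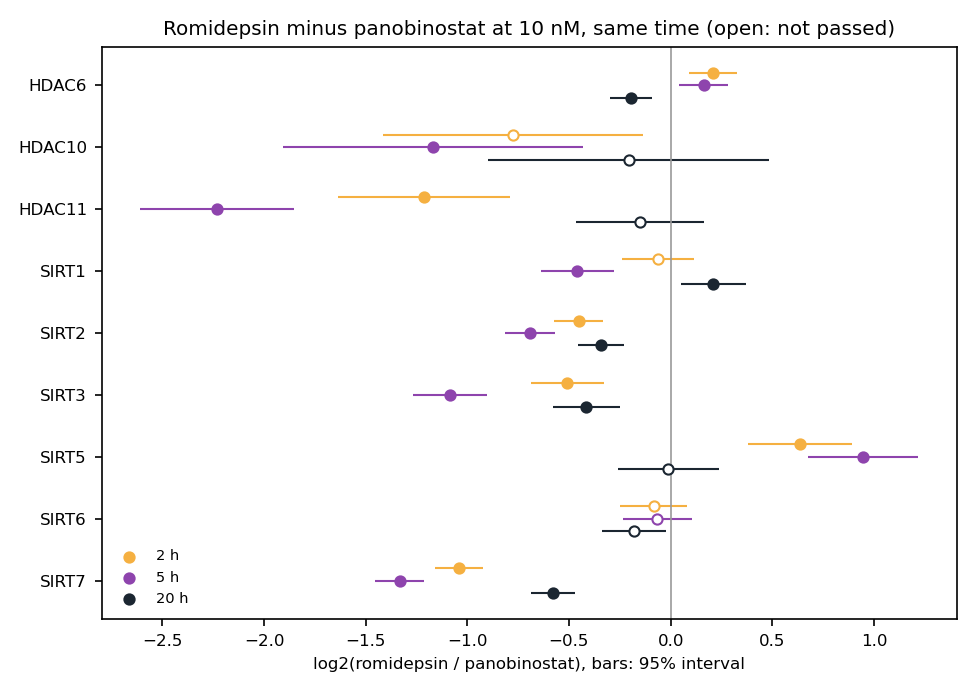
Difference between romidepsin and panobinostat at 10 nM and the same time for each gene, as log2 fold change with bars for 95% intervals (horizontal axis); filled points passed the edgeR test and open points did not. HDAC11, SIRT2, SIRT3 and SIRT7 lie left of 0, lower with romidepsin, at 2 and 5 h, while SIRT5 and HDAC6 lie right of 0 at those times.

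Successive times of each inhibitor were compared within the same fit. No vehicle libraries of matching times are labelled, so time with the inhibitor cannot be told apart from time in culture. Between 2 and 5 h, 4 of 9 genes passed with panobinostat (41.9% of all genes), 1 with romidepsin (20.3%) and 3 with ricolinostat (15.3%). The panobinostat count was 2 without the first 5 h library, and the romidepsin count was 0 without the first 2 h or second 5 h library, 2 without the second 2 h library and 3 without the first 5 h library. Between 5 and 20 h, 6 of 9 passed with panobinostat (56.3%), 8 with romidepsin (62.8%) and 6 with ricolinostat (37.9%). The 20 h libraries of romidepsin exceeded those of 5 h in HDAC11 by 1.88 ± 0.19, in SIRT7 by 1.12 ± 0.06, in SIRT1 by 0.92 ± 0.09, in SIRT3 by 0.76 ± 0.09 and in SIRT2 by 0.66 ± 0.06 (adjusted p of at most 5.82e-12), and in HDAC6 by 1.16. SIRT6 was also higher, by 0.20 ± 0.08 (adjusted p = 0.0279), and SIRT5 was lower, by -0.34 ± 0.13 (0.0162). The SIRT6 call was lost without the second 5 h library or either 20 h library (adjusted p = 0.319, 0.116 and 0.0565), with no filter (0.144) and with the compared libraries alone (0.0599). The SIRT5 call was lost without the first 5 h or first 20 h library (0.089 and 0.255), with DESeq2 (0.102) or its size factors (0.0565) and with library size alone (0.112). With ricolinostat the 20 h libraries were below those of 5 h by -0.59 ± 0.06 in SIRT7, -0.57 ± 0.19 in HDAC11, -0.52 ± 0.09 in SIRT3 and -0.28 ± 0.06 in SIRT2, and above them by 0.74 in HDAC6 and 0.71 ± 0.13 in SIRT5. The SIRT2 step passed at an adjusted p of 7.3e-05 and was lost without the second 20 h library (0.0686), and the HDAC11 step (0.0121) was lost without that library (0.204) or the first 5 h library (0.051).

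Across the 10 group means of log2 CPM, SIRT2 and SIRT3 had the closest patterns among the 9 genes, with Pearson r = 0.973, followed by SIRT2 and SIRT7 at 0.945, SIRT3 and SIRT7 at 0.934 and HDAC11 and SIRT3 at 0.929. These are descriptions over 10 points that share DMSO and the library scaling. Among 10428 protein-coding genes with a mean of at least 5 CPM in a group, the pattern most like that of HDAC6 was that of MB (r = 0.993), which encodes myoglobin. MB averaged 69.2 CPM at 20 h of panobinostat, 55.3 CPM at 20 h of romidepsin and 6.89 CPM at 20 h of ricolinostat, against 2.68 CPM in DMSO. For SIRT7 it was RMC1 (r = 0.993), for SIRT2 ABHD17A (0.987), for SIRT1 TMEM158 (0.985), for SIRT3 SLC35E4 (0.984) and for HDAC11 GNAZ (0.979). MZF1 was nearest to SIRT5 (0.974), PTDSS2 to HDAC10 (0.943) and CTXN1 to SIRT6 (0.938). Each is the highest r among the 10428 genes, so a high value follows largely from that choice. HDAC10 had few counts and SIRT6 a narrow range, which limits what their patterns show.

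The promoters of HDAC11, SIRT2 and SIRT3 are shown because these genes rose together at 2 and 5 h of panobinostat, that of HDAC6 because it fell there, and those of SIRT5 and SIRT1 as an early faller and for its E boxes. Each is 250 bases before to 50 after the start in RefSeq (GRCh38.p14), with the window nearest to the GENCODE start chosen; 8 of the 9 genes matched, and SIRT7 is named only. Both strands were searched for the GC box GGGCGG, the CCAAT box CCAAT, the E box CACGTG, the TATA box TATAAA, the NRF1 motif GCGCATGC, the ETS motif CCGGAAG, the CRE TGACGTCA and the YY1 motif AAGATGGC, and matches are in capitals. Runs of capitals longer than a motif are overlapping or touching matches.
HDAC11: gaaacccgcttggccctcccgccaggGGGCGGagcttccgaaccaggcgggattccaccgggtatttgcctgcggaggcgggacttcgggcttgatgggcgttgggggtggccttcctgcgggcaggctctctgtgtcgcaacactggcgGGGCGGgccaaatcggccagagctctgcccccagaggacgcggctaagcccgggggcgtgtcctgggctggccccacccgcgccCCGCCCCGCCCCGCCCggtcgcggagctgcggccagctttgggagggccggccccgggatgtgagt
SIRT2: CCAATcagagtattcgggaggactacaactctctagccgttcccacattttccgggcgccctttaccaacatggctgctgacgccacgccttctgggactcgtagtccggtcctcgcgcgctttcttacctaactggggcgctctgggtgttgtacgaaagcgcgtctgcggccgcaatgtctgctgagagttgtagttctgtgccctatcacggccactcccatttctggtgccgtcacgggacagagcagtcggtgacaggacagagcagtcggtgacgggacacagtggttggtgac
SIRT3: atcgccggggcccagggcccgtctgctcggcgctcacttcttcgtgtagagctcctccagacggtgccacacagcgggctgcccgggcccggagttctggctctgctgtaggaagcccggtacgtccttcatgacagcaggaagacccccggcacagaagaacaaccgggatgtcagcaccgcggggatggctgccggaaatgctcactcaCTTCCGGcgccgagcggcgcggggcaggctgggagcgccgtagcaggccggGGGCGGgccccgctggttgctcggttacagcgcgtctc
HDAC6: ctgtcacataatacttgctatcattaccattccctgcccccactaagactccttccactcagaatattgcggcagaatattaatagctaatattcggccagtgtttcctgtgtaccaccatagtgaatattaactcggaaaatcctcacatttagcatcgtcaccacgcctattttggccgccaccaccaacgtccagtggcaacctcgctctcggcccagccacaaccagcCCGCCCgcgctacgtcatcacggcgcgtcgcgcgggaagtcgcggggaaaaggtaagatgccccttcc
SIRT5: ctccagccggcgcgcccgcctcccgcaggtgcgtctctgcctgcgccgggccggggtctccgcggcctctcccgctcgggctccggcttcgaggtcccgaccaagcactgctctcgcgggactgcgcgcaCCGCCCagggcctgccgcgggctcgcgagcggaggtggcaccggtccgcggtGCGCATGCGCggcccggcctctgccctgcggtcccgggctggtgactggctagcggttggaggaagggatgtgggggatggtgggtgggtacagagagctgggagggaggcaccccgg
SIRT1: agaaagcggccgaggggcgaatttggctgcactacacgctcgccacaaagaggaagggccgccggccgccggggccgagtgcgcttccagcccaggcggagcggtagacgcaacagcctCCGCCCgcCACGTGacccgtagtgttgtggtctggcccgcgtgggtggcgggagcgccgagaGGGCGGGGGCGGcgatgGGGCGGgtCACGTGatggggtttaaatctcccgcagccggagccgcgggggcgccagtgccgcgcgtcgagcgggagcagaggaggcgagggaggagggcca

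The windows are chr3:13480056-13480355 (plus strand) for HDAC11, chr19:38899569-38899868 (minus) for SIRT2, chr11:236882-237181 (minus) for SIRT3, chrX:48801148-48801447 (plus) for HDAC6, chr6:13574279-13574578 (plus) for SIRT5 and chr10:67884406-67884705 (plus) for SIRT1. HDAC11 holds 5 GC boxes, SIRT1 holds 4, and HDAC6, SIRT3 and SIRT5 hold 1 each, a motif found in 45% of 35116 windows of this length. SIRT2 has no GC box and 1 CCAAT box, which 34.6% of windows hold. SIRT1 has 2 E boxes, which 7.26% of windows hold. SIRT5 has the NRF1 motif on both strands at 1 overlapping place, as does SIRT6, and 3.05% of windows hold it. SIRT3 has 1 ETS motif, which 10.3% of windows hold. None of these 6 windows holds the TATA box, CRE or YY1 motif, which are in 11.5%, 1.85% and 2.89% of all windows. Their GC content was 53.0% for HDAC6, 58.7% for SIRT2 and 69.3% to 76.3% for the other 4, beside a median of 58.7% over all windows. Further HDAC6 windows, at starts 572 and 690 bases from the GENCODE start, had 68.7% and 64.3% GC. They held 4 and 2 GC boxes and 2 CCAAT boxes each. A further SIRT5 window, at 72 bases, had 74.7% GC and 2 GC boxes. The HDAC11 start used lies 582 bases from the GENCODE start. A match describes letters and says nothing of binding.

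Several of the genes share a start region with a divergent partner, and the partners did not all follow them. NFKBIB, which encodes an inhibitor of NF-kB, starts 162 bases from SIRT2 on the other strand. It fell by 0.45 on the log2 scale at 20 h of panobinostat and by 0.82 at 20 h of romidepsin (SE 0.08 each, adjusted p = 2.58e-07 and 3.18e-16), where SIRT2 rose. NFKBIB and SIRT2 both rose at 2 h of panobinostat (NFKBIB 0.22 ± 0.08, adjusted p = 0.0141), at 2 h of ricolinostat (0.22 ± 0.08, 0.018) and at 5 h of ricolinostat (0.33 ± 0.08, 2.09e-04), while NFKBIB fell at 5 h of panobinostat (-0.19 ± 0.08, 0.0354). PSMD13, a proteasome subunit gene, starts 385 bases from SIRT3 and shares 316 exon bases with it on the opposite strand. It rose by 0.28 ± 0.04 at 20 h of panobinostat (adjusted p = 3.23e-08) and changed by 0.01 ± 0.05 at 20 h of romidepsin, which did not pass (0.909). PSMD13 and SIRT3 both rose at 2 h of panobinostat (PSMD13 0.22 ± 0.05, adjusted p = 2.39e-05). Both also rose at 2 and 5 h of ricolinostat (PSMD13 0.18 ± 0.05 and 0.30 ± 0.05, 9.68e-04 and 1.93e-08). At 5 h of panobinostat, where SIRT3 rose, PSMD13 did not pass (0.0716). At 20 h of ricolinostat PSMD13 fell (-0.17 ± 0.05, 0.00156), where SIRT3 did not pass. ANKRD24, which starts 750 bases from SIRT6, averaged 23.5 ± 0.342 CPM at 20 h of panobinostat and 11.9 ± 2.09 CPM at 20 h of romidepsin, against 0.658 ± 0.0874 CPM in DMSO (SD, n = 2), changes of 5.16 ± 0.27 and 4.17 ± 0.27 (adjusted p = 2.37e-33 and 7.68e-26). MAFG, which overlaps the start of SIRT7, fell by 0.82 and 0.60 on the log2 scale in the same comparisons (SE 0.05 each, adjusted p = 2.99e-28 and 1.07e-19). SIRT2, SIRT3 and SIRT7 share 40, 316 and 105 exon bases with NFKBIB, PSMD13 and MAFG. The strand setting and the rule for shared reads are not given, so their counts are uncertain over these bases.

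**Figure D5:**
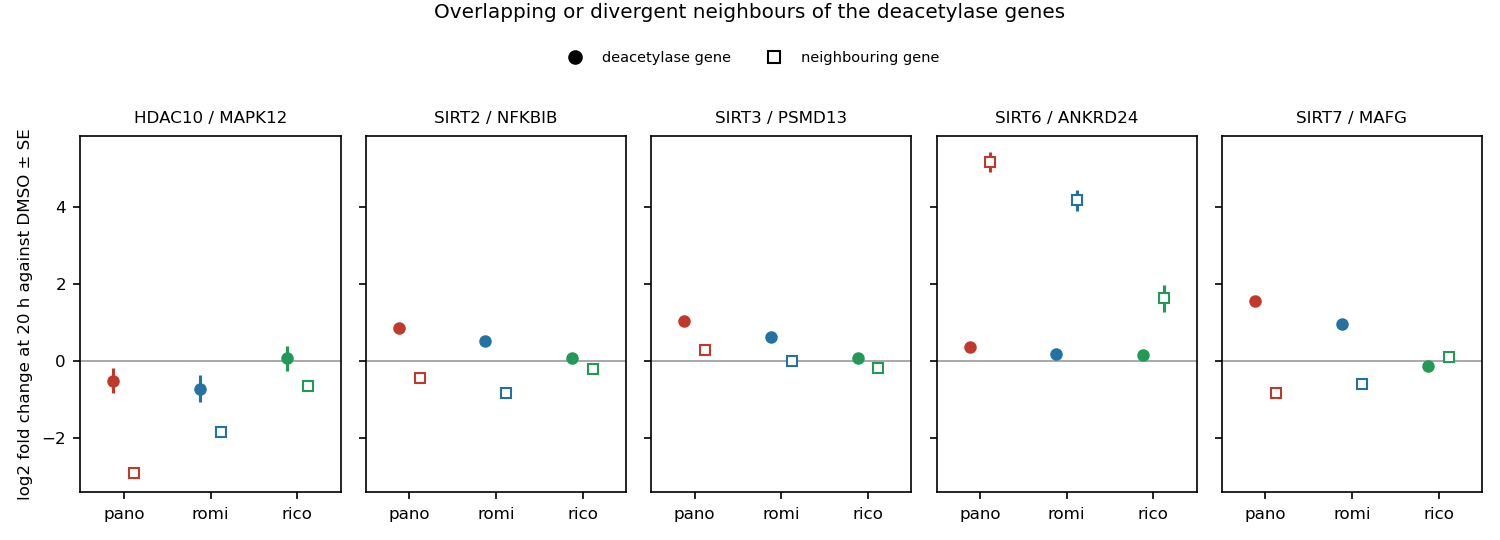
Change at 20 h against DMSO, as log2 fold change ± SE (vertical axis), of 5 deacetylase genes (filled circles) and of the tested gene that overlaps or starts beside each (open squares), for panobinostat, romidepsin and ricolinostat from left to right. ANKRD24 beside SIRT6 reached 5.16 with panobinostat, and MAPK12, which overlaps HDAC10, fell to -2.91.

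Genes that work with HDAC6 in tubulin acetylation and the aggresome were followed as a list of 16, all tested. With panobinostat at 20 h 9 were higher, 6 lower and 1 did not pass, with a median of 0.51, beside 40.8% and 32.3% of all genes and their median of 0.25. With romidepsin at 20 h 8 were higher and 8 lower (median 0.21), beside 38.6% and 29.9% of all genes (median 0.22), and with ricolinostat 1 was higher, 7 lower and 8 did not pass (median -0.14), beside 14.7% and 16.4% (median 0.03). With library size alone the romidepsin count of lower genes was 5 and the ricolinostat count of higher genes 3. TPPP, which encodes a microtubule-binding protein that inhibits HDAC6, averaged 77.4 ± 4.76 CPM at 20 h of panobinostat and 59.9 ± 0.875 CPM at 20 h of romidepsin, against 3.94 ± 0.00879 CPM in DMSO (SD, n = 2), rises of 4.29 ± 0.11 and 3.92 ± 0.12 (adjusted p = 8.47e-58 and 1.51e-53). CTTN, the gene of the HDAC6 substrate cortactin, rose by 1.72 ± 0.12 with panobinostat and 0.65 ± 0.13 with romidepsin (adjusted p = 3.17e-24 and 6.79e-06). BAG3, a co-chaperone of aggresome sorting, fell by 0.97, 0.83 and 0.39 on the log2 scale at 20 h of panobinostat, romidepsin and ricolinostat (SE 0.05 each). VCP, a segregase that dissociates HDAC6 from ubiquitinated protein, fell by 0.67, 0.54 and 0.37 in the same groups (SE 0.04 each, adjusted p of at most 1.3e-14).

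Polyamine genes, the pathway of the HDAC10 substrate, numbered 15, all tested. By 20 h 8 were higher, 6 lower and 1 did not pass with panobinostat, and the same numbers held with romidepsin. With ricolinostat 1 was higher, 6 lower and 8 did not pass. The medians were 0.64, 0.60 and 0.01, beside 0.25, 0.22 and 0.03 for all genes, of which 40.8%, 38.6% and 14.7% were higher and 32.3%, 29.9% and 16.4% lower. The ricolinostat count of higher genes was 4 with library size alone. SAT1, whose product acetylates spermidine and spermine for breakdown, averaged 290.3 ± 0.873 CPM at 20 h of panobinostat and 389 ± 4.20 CPM at 20 h of romidepsin, against 6.85 ± 0.280 CPM in DMSO (SD, n = 2), rises of 5.40 ± 0.08 and 5.83 ± 0.08 (adjusted p = 2.26e-78 and 7.32e-81). With ricolinostat SAT1 averaged 7.85 ± 0.694 CPM and did not pass (adjusted p = 0.228). SMOX, which encodes spermine oxidase, rose by 1.67 ± 0.15 with panobinostat and 1.30 ± 0.15 with romidepsin (adjusted p = 1.2e-18 and 6.62e-13). The synthase genes went down: SRM, for spermidine synthase, averaged 34.2 ± 1.96, 25.5 ± 1.33 and 179 ± 0.269 CPM at 20 h of panobinostat, romidepsin and ricolinostat, against 349.6 ± 9.91 CPM in DMSO. SMS, for spermine synthase, fell by 1.78, 1.35 and 0.26 on the log2 scale (SE 0.06 each, adjusted p = 1.28e-48, 3.71e-39 and 8.93e-05).

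NAD, the cosubstrate of the sirtuins, was covered by 24 genes, of which 19 were tested and NMNAT2, NNMT, SLC25A52, BST1 and HAAO fell under the filter on low counts. With panobinostat at 20 h 7 were higher, 10 lower and 2 did not pass, at 20 h of romidepsin 7, 9 and 3, and at 20 h of ricolinostat 5, 6 and 8. The medians were -0.15, 0.00 and -0.05, beside 0.25, 0.22 and 0.03 for all genes, of which 40.8%, 38.6% and 14.7% were higher and 32.3%, 29.9% and 16.4% lower. SARM1, an NAD hydrolase, averaged 7.54 ± 0.0746 CPM at 20 h of panobinostat against 0.892 ± 0.00368 CPM in DMSO, a rise of 3.07 ± 0.29 (adjusted p = 2.33e-17). NMRK1, a nicotinamide riboside kinase, rose by 1.10 ± 0.15, 1.89 ± 0.14 and 0.71 ± 0.16 with panobinostat, romidepsin and ricolinostat (adjusted p of at most 1.24e-04). NNT, the mitochondrial transhydrogenase between NADH and NADP, averaged 35.0 ± 3.21 CPM at 20 h of panobinostat and 103 ± 0.526 CPM at 20 h of romidepsin, against 374 ± 3.93 CPM in DMSO, falls of 3.41 and 1.86 on the log2 scale (SE 0.05 each). QPRT, which feeds the de novo route from quinolinate, fell by 2.34 with panobinostat and 0.75 with romidepsin (SE 0.07 and 0.06) and rose by 0.51 ± 0.06 with ricolinostat.

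Of 18 regulators and substrates of the sirtuins, all tested, 3 were higher and 15 lower at 20 h of panobinostat, 5 higher, 12 lower and 1 not passed at 20 h of romidepsin, and 3, 9 and 6 at 20 h of ricolinostat. The medians were -0.79, -0.60 and -0.13, beside 0.25, 0.22 and 0.03 for all genes, of which 32.3%, 29.9% and 16.4% were lower and 40.8%, 38.6% and 14.7% higher. The ricolinostat count of higher genes was 6 with library size alone. CPS1, for a mitochondrial urea-cycle enzyme that SIRT5 acts on, averaged 20.4 ± 0.0526 CPM at 20 h of panobinostat and 15.6 ± 0.388 CPM at 20 h of romidepsin, against 0.112 ± 0.158 CPM in DMSO (SD, n = 2). ACSS2, for the acetyl-CoA synthetase of the cytosol and nucleus, rose by 2.36 ± 0.15 and 2.10 ± 0.15, whereas ACSS1, for the mitochondrial one that SIRT3 deacetylates, fell by 2.99 and 2.23 on the log2 scale (SE 0.11 and 0.10). UBTF, a ribosomal DNA transcription factor that binds SIRT7, averaged 24.2 ± 0.387 CPM at 20 h of panobinostat, 44.4 ± 4.49 CPM at 20 h of romidepsin and 345 ± 1.62 CPM at 20 h of ricolinostat, against 431 ± 10.3 CPM in DMSO. The changes of UBTF were -4.16, -3.28 and -0.32 on the log2 scale (SE 0.06, 0.06 and 0.05), with adjusted p of 2.16e-44, 5.63e-41 and 1.04e-06.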

How the data were processed

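RNA of OPM2 cells was sequenced in 20 libraries, 2 for each of 10 groups taken from the labels. The deposited table holds whole-number read counts per gene, and per the submitters' processing notes the authors used HISAT2, SAMtools and featureCounts with the GRCh38 build. No source used here gives the annotation release, the strand setting or the rule for shared reads. Even counts were more frequent than odd ones among low values (76134 values of 2 and 43567 of 1), a pattern that arises when both reads of a pair are counted, so counting errors are larger than the counts alone give. Of 78932 identifiers, 61481 were in the name table and 57356 in GENCODE 29, which gave positions and exon lengths.

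Genes with low counts were removed with filterByExpr (minimum count 10), which left 20957. TMM-scaled counts went into 1 robust quasi-likelihood fit of the 10 groups in edgeR 4.0.16 (R 4.3.3), with a common dispersion of 0.00175. An SE is the size of the log2 fold change over the square root of its F. All p-values are two-sided, adjusted by Benjamini-Hochberg within a comparison over all tested genes, with a threshold of 0.05. With no label of a shared culture day, p-values measure the spread between these libraries. The chi-square per degree of freedom between libraries of a group was 6.476 at 2 h of panobinostat and 4.247 at 5 h of ricolinostat. In the other groups it was 2.361 to 2.935, where 1 is counting noise alone and counting both reads of a pair gives more. All groups shared 1 estimate of the spread in the fit.

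Alternatives were DESeq2 1.42.0, its size factors, library size alone, no filter, a replicate block, the compared libraries alone, and leaving out each library. The compared libraries were those of DMSO and of every time of the inhibitors compared. Named are the 9 genes, for each the gene of most similar pattern (of 2 ranked), up to 2 rises and 2 falls per pathway list at 20 h of panobinostat with a mean of at least 5 CPM, overlapping or divergent neighbours within 1000 bases, and marker lists. Genes and lists were chosen with earlier results of these data known. T and NK cell, myeloid, erythroid and epithelial marker lists were also summed, and reached at most 0.637, 8.92, 1.06 and 0.455 CPM. In DMSO they reached at most 0.140, 0.698, 0.909 and 0 CPM. The myeloid sum was highest at 20 h of panobinostat, at 8.87 to 8.92 CPM.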

Additional observations from a re-analysis of the deposited data

Results flagged for a closer look

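In 4 cases a gene was past the threshold on one side of DMSO at 5 h and on the other at 20 h. The test between these times, from the same edgeR fit, passed in each. The change between times is the gap between the opposite changes, so its pass largely follows from the choice and adds no support. HDAC6 differed between 20 h and 5 h by 1.52 with panobinostat (adjusted p = 2.03e-44), by 1.16 with romidepsin (9.05e-36) and by 0.74 with ricolinostat (5.66e-20) on the log2 scale. SIRT1 differed by 0.92 with romidepsin (adjusted p = 1.15e-16). The 5 h falls of HDAC6 and SIRT1 with romidepsin were each lost without the first DMSO library or the second romidepsin library. DMSO has no harvest time in the labels and cancels in the difference between times. Time in culture does not cancel, so it cannot be told apart there from time with the inhibitor.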

How the results depend on the processing

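Of 91 member results past the threshold, 22 lost it in 1 or more of the fits that left out a library and 10 under another alternative, and 38 of 1619 alternative values changed sign with neither value past the threshold. No value past the threshold changed direction. At 2 h of romidepsin the count of the 9 genes past the threshold (1) was 0 with library size alone, 0 with no filter and 0 to 1 without a library, and the count over all genes (1711) was 913 to 1080 without a library. At 5 h of romidepsin (3) it was 5 with DESeq2, 5 with its size factors, 1 with library size alone and 1 to 6 without a library. At 20 h of ricolinostat (1) it was 4 with library size alone and 1 to 2 without a library. Between 2 and 5 h it was 2 to 3 without a library for panobinostat (4), and for romidepsin (1) 0 with library size alone and 0 to 3 without a library. Library size alone moved the median change of all genes at 20 h to 0.556 with panobinostat and 0.457 with romidepsin, against 0.252 and 0.222 with TMM. It also changed list counts at 20 h: 5 aggresome genes were lower with romidepsin in place of 8, and with ricolinostat 3 aggresome, 4 polyamine, 6 sirtuin partner and 4 other HDAC genes were higher in place of 1, 1, 3 and 2. Same-numbered libraries did not deviate together (correlations of -0.123 to 0.0845 over 45 pairs of groups, median 0.0048), so the replicate numbers were not taken as pairs. With the replicate block the count was 7 in place of 5 at 2 h of ricolinostat (SIRT1 and SIRT6 passed, adjusted p = 0.0431 and 0.0415) and 6 in place of 5 between romidepsin and panobinostat at 20 h (SIRT6, 0.0364), and no other member call changed. Depth limits HDAC10 most, at 17 to 69 counts a library. With 1 library left in a group, it is assumed to vary like the others.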

Other observations

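The 8 other zinc-dependent HDAC genes, all tested, split at 20 h: 3 were higher and 5 lower with panobinostat, 3 and 5 with romidepsin, and 2 and 3 with ricolinostat, where 3 did not pass. Over all tested genes 40.8%, 38.6% and 14.7% were higher and 32.3%, 29.9% and 16.4% lower in these comparisons, and with library size alone 4 of the 8 were higher with ricolinostat. The median changes were -0.53, -0.44 and -0.02 on the log2 scale, beside 0.25, 0.22 and 0.03 for all genes. HDAC3, the catalytic subunit of the nuclear receptor corepressor complexes, averaged 92.5 ± 1.09 CPM at 20 h of panobinostat and 88.3 ± 4.76 CPM at 20 h of romidepsin, against 34.3 ± 5.00 CPM in DMSO (SD, n = 2), rises of 1.44 ± 0.07 and 1.37 ± 0.07 by edgeR (adjusted p = 5.45e-37 and 6.13e-35). HDAC7, a class IIa gene active in lymphoid cells, averaged 7.57 ± 1.02 CPM at 20 h of panobinostat, 22.1 ± 2.23 CPM at 20 h of romidepsin and 122 ± 1.39 CPM at 20 h of ricolinostat, against 145 ± 1.19 CPM in DMSO. The class IIa gene HDAC9 fell by 2.76 with panobinostat and 0.74 with romidepsin on the log2 scale (SE 0.09 and 0.08) and rose by 0.62 ± 0.07 with ricolinostat (adjusted p of at most 8.14e-12). HDAC5, also of class IIa, rose by 0.31 ± 0.05 and 0.54 ± 0.05 with panobinostat and romidepsin.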
